A study of Homo sapiens with 6 samples.

Results

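Collagens, laminins and integrins are the fibres, sheets and receptors through which a cell holds on to its surroundings, and fibronectin is the adhesive glycoprotein that joins them. The genes described here were chosen by name: every probe set with exactly 1 gene symbol that reads COL, a number, A and a number, LAMA, LAMB or LAMC with a number, ITGA with a number, ITGAV, or ITGB with a number, plus FN1. They numbered 73 of 18417 genes, namely 43 collagens, 10 laminin chains, 19 integrin subunits and fibronectin, on 75 probe sets, and the probe set with the highest mean stood for a gene. Of the 73, 58 had a mean over the 6 arrays at or above a filter level of 5.80 on the log2 scale, the 25th percentile of all listed probe sets, and were tested. Those 58 were 34 collagens, 8 laminin chains, 15 integrin subunits and fibronectin.

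The cells were the established human lines Mel 290, Mel 270 and 92.1, all labelled as choroidal uveal melanoma, a tumour of the eye's melanocytes. In co-culture each line grew under a porous insert (0.4 µm) that held T cells from the blood of healthy volunteers, activated with beads against CD3 and CD28, and in the other group each line grew alone. All 6 cultures were moved to the same serum-free medium, X-VIVO 15, for 64 h, after 80000 cells of 92.1 or 100000 cells of either other line had been plated. At the change of medium Mel 290 was confluent and the other lines were not yet, so line and cell density at that point cannot be told apart. There was 1 array per line and culture, so the replicates of the culture comparison were 3 lines (n = 3). The membrane kept the T cells apart from the melanoma cells, which were scraped off for RNA.

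Fibrillar collagens such as types I, III and V form the cables of connective tissue. Type IV collagen and the laminins, which are trimers of an alpha, a beta and a gamma chain, build the thin basement membrane under epithelia and around vessels. An integrin is a pair of 1 alpha and 1 beta subunit that binds such a protein outside the cell and the actin skeleton inside it, and the alpha subunit largely sets which protein is bound. Some integrins with the alpha V subunit also release active TGF-beta from its latent store, and fibronectin, tenascin and collagens are known targets of TGF-beta.

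The labelled cell type was checked against its markers. Of 10 tested melanocyte markers 9 were lower in Mel 290 than in the other lines, where 14.9% of all tested genes were lower. Mel 290 had low signal for MLANA (5.05 in co-culture and 4.92 alone), TYR (4.64 and 4.79) and TYRP1 (5.02 and 5.19). These genes were under the filter level in both cultures of Mel 290 and passed it through the other lines. The same markers were high in 92.1 and Mel 270, where TYRP1 was at 13.07 and 12.66 in co-culture and at 13.19 and 13.05 alone. In the line contrasts 8 of the 10 markers were higher in 92.1 (9.73% of all tested genes), and 5 were higher and 1 lower in Mel 270 (6.83% and 7.62%). In co-culture 0 of the 10 were called in limma (0.449% of all), and 5 were lower at an unadjusted p under 0.05 (13% of all). RNA of T cells was looked for as well: CD3D, CD3E and CD3G were at most 5.70 in co-culture, and 0 of 5 tested T cell markers were called or passed an unadjusted p under 0.05. The mean level of the T cell list was 5.46 to 5.76 in the co-cultures, against 5.53 to 5.67 in the cultures grown alone. In such bulk RNA, fewer cells with a transcript and less of it per cell cannot be told apart. To see whether the co-cultures had responded, interferon and NF-kappaB responders were counted. Of 8 tested, 4 were called higher in co-culture in limma (0.413% of all tested genes). Among them was IDO1, which degrades tryptophan (12.27, 11.48 and 10.96 in co-cultured 92.1, Mel 270 and Mel 290, against 4.13, 4.21 and 3.84 alone). IDO1 was under the filter level in every line alone and passed it through the co-cultures. The list was chosen with earlier results of these data known, so its count is not an independent check.

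The promoters of the genes with the largest mean differences in co-culture are shown first, so that their letters can be read beside the values below. The sequences are the 250 bases before the annotated start of ITGB8, FN1 and LAMB3 in RefSeq (GRCh38.p14), read 5′ to 3′ along the gene. ITGB8 lies on the plus strand at chr7:20330650-20330899, FN1 on the minus strand at chr2:215436069-215436318 and LAMB3 on the minus strand at chr1:209651375-209651624, where it is 1 of 3 start sites listed for LAMB3. The last sequence is the whole stretch of 126 bases between the start sites of COL4A1 and COL4A2, the chains of the main type IV collagen, which are read in opposite directions from chr13:110307158-110307283. Capitals mark matches to the CCAAT box (CCAAT or its complement ATTGG) in all 4, the cyclic AMP response element (TGACGTCA) in FN1 and the AP-1 motif (TGANTCA) in LAMB3. Of the 3 LAMB3 start sites, the printed one was chosen because only its 250 bases hold the AP-1 motif. That match was therefore fixed by the choice.
ITGB8: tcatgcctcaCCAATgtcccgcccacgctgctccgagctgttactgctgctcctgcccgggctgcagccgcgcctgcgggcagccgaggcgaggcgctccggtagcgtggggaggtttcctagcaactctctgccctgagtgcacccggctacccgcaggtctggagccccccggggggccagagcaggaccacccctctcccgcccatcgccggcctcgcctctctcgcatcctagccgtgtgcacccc
FN1: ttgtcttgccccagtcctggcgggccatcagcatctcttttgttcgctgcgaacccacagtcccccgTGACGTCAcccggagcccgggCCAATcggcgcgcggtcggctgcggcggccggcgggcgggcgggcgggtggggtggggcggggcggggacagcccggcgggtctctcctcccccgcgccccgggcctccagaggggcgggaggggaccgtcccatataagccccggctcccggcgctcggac
LAMB3: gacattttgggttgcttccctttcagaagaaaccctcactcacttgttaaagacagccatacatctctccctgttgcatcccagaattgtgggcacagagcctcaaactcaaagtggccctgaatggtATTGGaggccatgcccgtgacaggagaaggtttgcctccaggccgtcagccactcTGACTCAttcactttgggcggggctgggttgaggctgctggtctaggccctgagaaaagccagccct
COL4A1-COL4A2: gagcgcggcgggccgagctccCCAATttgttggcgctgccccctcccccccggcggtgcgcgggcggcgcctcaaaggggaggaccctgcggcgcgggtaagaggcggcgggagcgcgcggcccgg
Both strands were searched for these motifs and for 4 others in the same 250 bases, and a match describes the letters only. A window was listed for 53 of the 73 genes, with 72 windows in all. CCAAT was found in 22.2% of those windows and in 32.0% of all 35116 windows of that length. The cyclic AMP response element was found for 1 gene, FN1, and in 1.65% of all windows, and the AP-1 motif for COL10A1 and LAMB3 and in 6.57% of all windows. The interferon-related motifs were rare too: TTCNNNGAA (STAT) was found for COL7A1 and LAMB2 and in 6.57% of all windows, the ISRE motif for ITGB5 and in 3.02%, and the NF-kappaB motif for COL7A1 and in 1.40%. TATAAA was found in 12.5% of the windows of these genes and in 10.7% of all windows. The motifs did not overlap each other in the printed stretches.

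Co-culture was compared with growth alone to see whether the matrix genes and their receptors differed beside activated T cells held behind a membrane. An insert is recorded for the co-cultures only, so soluble T cell factors and the insert itself cannot be told apart. In limma with cell line as a block, 1 of the 58 tested genes rose and 0 fell at an adjusted p under 0.05, where 0.449% of all 13808 tested genes were called, 0.413% higher and 0.0362% lower. At an unadjusted p under 0.05, 8 were higher and 1 was lower, where 7.02% of all tested genes were higher and 13% lower. The gene that rose was ITGB8, the beta subunit that pairs with alpha V and binds latent TGF-beta. Its level was 6.73, 10.20 and 10.29 in co-cultured 92.1, Mel 270 and Mel 290, against 5.42, 8.14 and 8.29 alone. Every co-cultured line lay above the same line alone, by 2.48-fold in 92.1, 4.17-fold in Mel 270 and 3.99-fold in Mel 290, although 92.1 lay below the other lines in both cultures. ITGB8 was under the filter level in 92.1 alone, so its fold there is imprecise. Raising low values to the filter level gave ITGB8 an adjusted p of 0.080. The mean log2 difference was 1.79 ± 0.41 (SD over n = 3 lines), or 3.46-fold, with an adjusted p of 0.049 in limma. That p is close to the threshold: over 10 alternatives the difference was 1.65 to 2.03, and the adjusted p was 0.040 to 0.11 in 9 of them and 0.999 when the cell line was left out of the model. Without the Mel 270 pair it was 0.060, and without the Mel 290 pair 0.11.

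**Figure D1:**
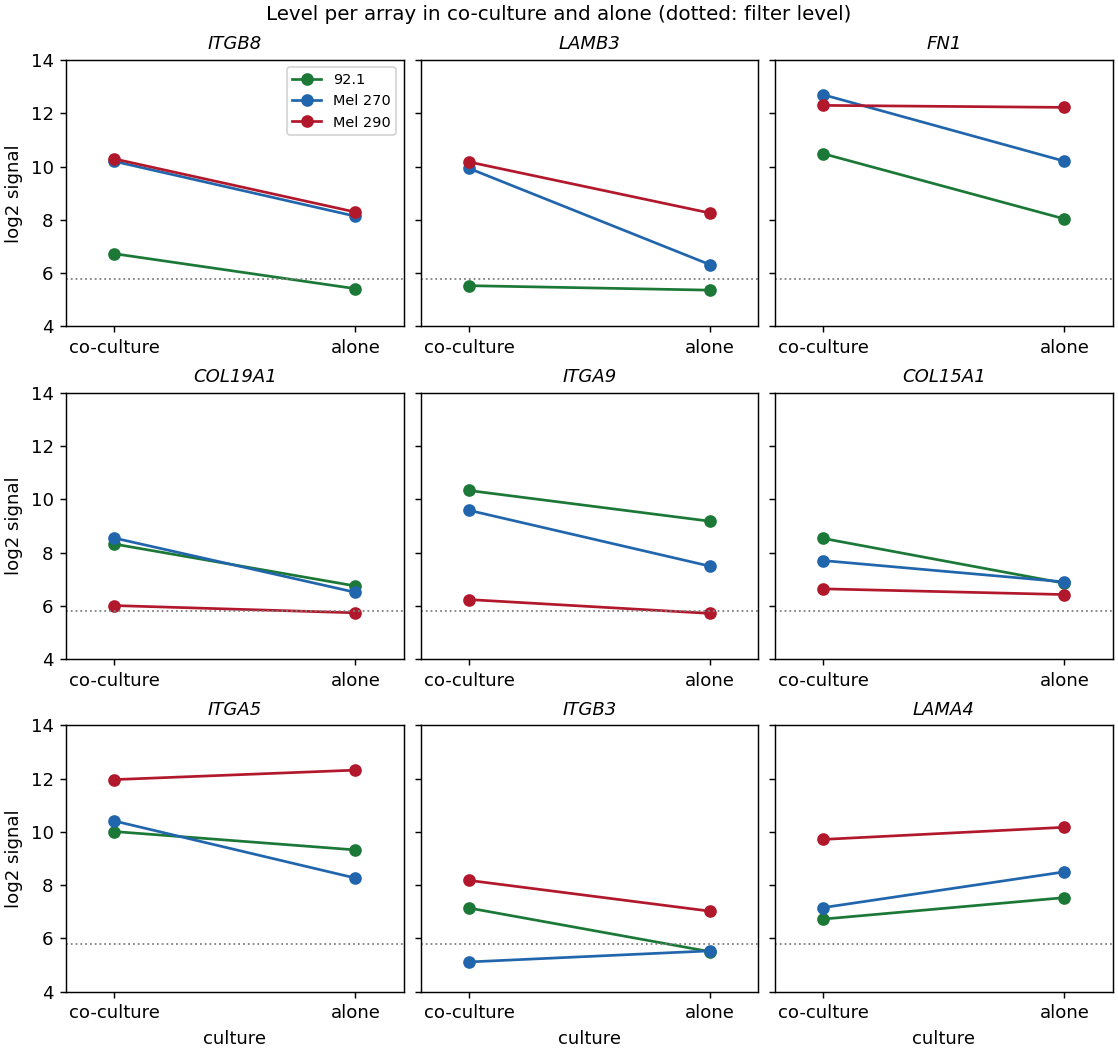
Log2 signal (vertical axis) of 9 genes in co-culture and alone, with 1 point per array, a line joining the 2 arrays of a cell line, and the filter level of 5.80 dotted. For ITGB8 every cell line is higher in co-culture, while for FN1 92.1 and Mel 270 are higher and Mel 290 stays near 12.2.

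Fold differences per line rest on 1 array each and have no test. At least 2-fold higher levels in co-culture were seen for 7 of the 58 genes in 92.1 (3.63% of all tested genes), 6 in Mel 270 (5.29%) and 3 in Mel 290 (2.07%). At least 2-fold lower levels were seen for 0 genes in 92.1 (2.71% of all), 1 in Mel 270 (4.52%) and 1 in Mel 290 (2.30%). In 2 or more lines, 6 genes were at least 2-fold higher (2.66% of all tested genes): COL19A1, FN1, ITGA9, ITGB3, ITGB8 and LAMB3. ITGB8 alone was so in 3 lines (0.898% of all). A difference of the same sign in 3 lines was common in the whole table: 10 of 58 were higher in every line against 16.2% of all genes, and 9 were lower in every line against 25.5%. The median mean difference was -0.02 over the 58 and -0.04 over all tested genes.

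Fibronectin, the adhesive glycoprotein bound by alpha 5 beta 1 and by the alpha V integrins, gave unequal differences between the cultures in the 3 lines, which were not tested against each other. FN1 was at 10.48 in 92.1, 12.70 in Mel 270 and 12.30 in Mel 290 in co-culture, against 8.04, 10.20 and 12.22 in the same lines alone. In 92.1 and Mel 270 the co-culture lay 5.45-fold and 5.63-fold higher than the culture alone, and in Mel 290, which had the highest level of the 3 lines alone, 1.05-fold. The mean difference of 1.67 ± 1.38 did not pass (adjusted p = 0.17), and it did pass without the Mel 290 pair (2.47, adjusted p = 0.034). Across the other alternatives its adjusted p was 0.14 to 0.999. FN1 spanned 2.21 on the log2 scale between the lines in co-culture and 4.19 between them alone, and over both cultures 92.1 minus the mean of the other lines was -2.60 ± 0.54 (SE, adjusted p = 0.038). That difference did not pass without 1 of the 92.1 arrays (adjusted p = 0.11 without its co-culture and 0.20 without its culture alone).

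Among the laminins the beta 3 chain, a part of laminin-332 of epithelial basement membranes, had the largest mean difference. LAMB3 was at 5.53, 9.94 and 10.18 in co-cultured 92.1, Mel 270 and Mel 290, against 5.36, 6.32 and 8.26 alone. Mel 270 gave a 12.3-fold and Mel 290 a 3.78-fold higher level in co-culture, and 92.1, where LAMB3 stayed below the filter level in both cultures, 1.12-fold. The mean difference was 1.90 ± 1.72 (adjusted p = 0.20). The alpha 4 chain, found in vessel and muscle basement membranes, was lower in co-culture in every line. LAMA4 was at 6.73 in 92.1, 7.16 in Mel 270 and 9.72 in Mel 290 in co-culture, against 7.53, 8.50 and 10.17 in the same lines alone, a mean difference of -0.87 ± 0.45 (adjusted p = 0.12). LAMC1, the gamma chain of most laminins, was at 10.53, 11.42 and 10.53 in co-cultured 92.1, Mel 270 and Mel 290, against 10.38, 10.51 and 10.80 alone, with the widest gap between cultures, 1.87-fold, in Mel 270. LAMB2 was at 9.96 in 92.1, 10.08 in Mel 270 and 10.26 in Mel 290 in co-culture, against 9.35, 9.67 and 10.48 in the same lines alone. LAMA5 varied little between the cultures: it was at 8.40, 8.50 and 8.002 in co-cultured 92.1, Mel 270 and Mel 290, against 8.33, 8.73 and 8.002 alone.

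Laminin chains differed between the lines. LAMA1, the alpha chain of laminin-111, was highest in 92.1, at 9.82 and 10.04 in 92.1 (co-culture, alone), against 6.13 and 6.24 in Mel 290 and 6.88 and 7.49 in Mel 270 (3.25 ± 0.16 above the mean of the other lines, SE, adjusted p = 0.0034). LAMB1 was lowest in Mel 270, at 7.03 and 6.40 in Mel 270 (co-culture, alone), against 9.76 and 10.26 in Mel 290 and 10.23 and 10.20 in 92.1 (-3.40 ± 0.25, adjusted p = 0.0038). LAMA4 was highest in Mel 290 (2.47 ± 0.21, adjusted p = 0.0028) and LAMB3 was lowest in 92.1 (-3.23 ± 0.67, adjusted p = 0.038). The LAMB3 value was -1.93 without the co-culture array of 92.1 (adjusted p = 0.15), ran to -4.53 over 12 alternatives and was also not called without either Mel 290 array or with low values raised. LAMC3, a gamma chain of retina and nerve, ran in a narrower range, at 8.35 in 92.1, 7.85 in Mel 270 and 7.46 in Mel 290 in co-culture, against 8.28, 8.03 and 7.29 in the same lines alone. It was called higher in 92.1 (0.66 ± 0.14, adjusted p = 0.042) and lower in Mel 290 (-0.75 ± 0.14, adjusted p = 0.020), neither under every alternative. In each of the 4 genes first named here, the 2 arrays of the line in question lay on 1 side of all 4 other arrays. Of 8 tested laminins, 5 differed at least 2-fold between the highest and the lowest line alone, against 26.7% of all tested genes, and 5 passed in at least 1 line contrast, against 33.9%. LAMB1 has LAMB4 as its genomic neighbour, and LAMB4 ranged over 4.49 to 4.77, under the filter level on every array. LAMA3 was not analysed here.

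Among the collagens, most differences between the cultures were small. In limma 0 of 34 tested were called and 4 were higher and 0 lower at an unadjusted p under 0.05 (7.02% and 13% of all tested genes). In every line 25 stayed within 0.5 on the log2 scale of their level alone. The median difference was -0.12 in 92.1, -0.23 in Mel 270 and 0.17 in Mel 290, beside -0.08, -0.06 and 0.01 for all tested genes. COL19A1, a fibril-associated collagen, was at 8.32, 8.54 and 6.01 in co-cultured 92.1, Mel 270 and Mel 290, against 6.74, 6.51 and 5.74 alone (1.29 ± 0.91, adjusted p = 0.14). COL15A1, a collagen of the basement membrane zone, was at 8.53 in 92.1, 7.70 in Mel 270 and 6.64 in Mel 290 in co-culture, against 6.85, 6.90 and 6.42 in the same lines alone (0.90 ± 0.74, adjusted p = 0.19). For both, the co-cultures of 92.1 and Mel 270 lay above all 3 cultures grown alone, and Mel 290 lay below those co-cultures. Over both cultures COL19A1 was called lower in Mel 290 than in the other lines (-1.65 ± 0.37, SE, adjusted p = 0.031), though not under every alternative. COL12A1, another fibril-associated collagen, was 1.84 lower on the log2 scale in co-cultured Mel 290 (8.25 in co-culture and 10.09 alone), and was not above 4.79 in any culture of the other lines.

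Of 34 tested collagens, 5 were higher and 4 lower in co-culture in every line, against 16.2% and 25.5% of all tested genes. The smaller differences among the 5 were those of COL6A2, a chain of beaded type VI collagen, COL27A1, a fibrillar collagen of cartilage, and COL18A1. The 4 lower ones were COL1A1, COL4A5, COL8A1 and COL11A1. COL6A2 was at 8.88, 9.53 and 8.46 in co-cultured 92.1, Mel 270 and Mel 290, against 8.54, 8.78 and 8.11 alone (0.48 ± 0.23, adjusted p = 0.17). COL27A1 was at 7.93 in 92.1, 7.55 in Mel 270 and 7.67 in Mel 290 in co-culture, against 7.44, 7.35 and 7.29 in the same lines alone (0.36 ± 0.15, adjusted p = 0.22). COL4A5, a type IV chain, ran the other way, at 6.99, 6.79 and 6.38 in co-cultured 92.1, Mel 270 and Mel 290, against 7.08, 7.31 and 6.74 alone (-0.32 ± 0.22). The transmembrane collagens were lower in co-culture in 92.1 and Mel 270 and higher in Mel 290, without a test. This pattern was not particular to them. Of 34 tested collagens, 12 were higher in co-culture in 92.1, 8 in Mel 270 and 26 in Mel 290. Over all tested genes the shares were 39.9%, 42.7% and 50.8%. COL25A1, a transmembrane collagen, was at 5.96 in 92.1, 5.67 in Mel 270 and 6.13 in Mel 290 in co-culture, against 6.63, 6.31 and 5.86 in the same lines alone. COL23A1 was at 6.97, 6.80 and 7.37 in co-cultured 92.1, Mel 270 and Mel 290, against 7.24, 7.36 and 7.26 alone. COL16A1 was at 6.92 in 92.1, 7.24 in Mel 270 and 7.28 in Mel 290 in co-culture, against 7.08, 7.60 and 6.95 in the same lines alone, and COL9A3, a cartilage collagen, at 7.79, 8.42 and 8.08 in co-cultured 92.1, Mel 270 and Mel 290, against 7.95, 8.50 and 7.78 alone. All of these moved by less than 1 on the log2 scale in each line.

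**Figure D2:**
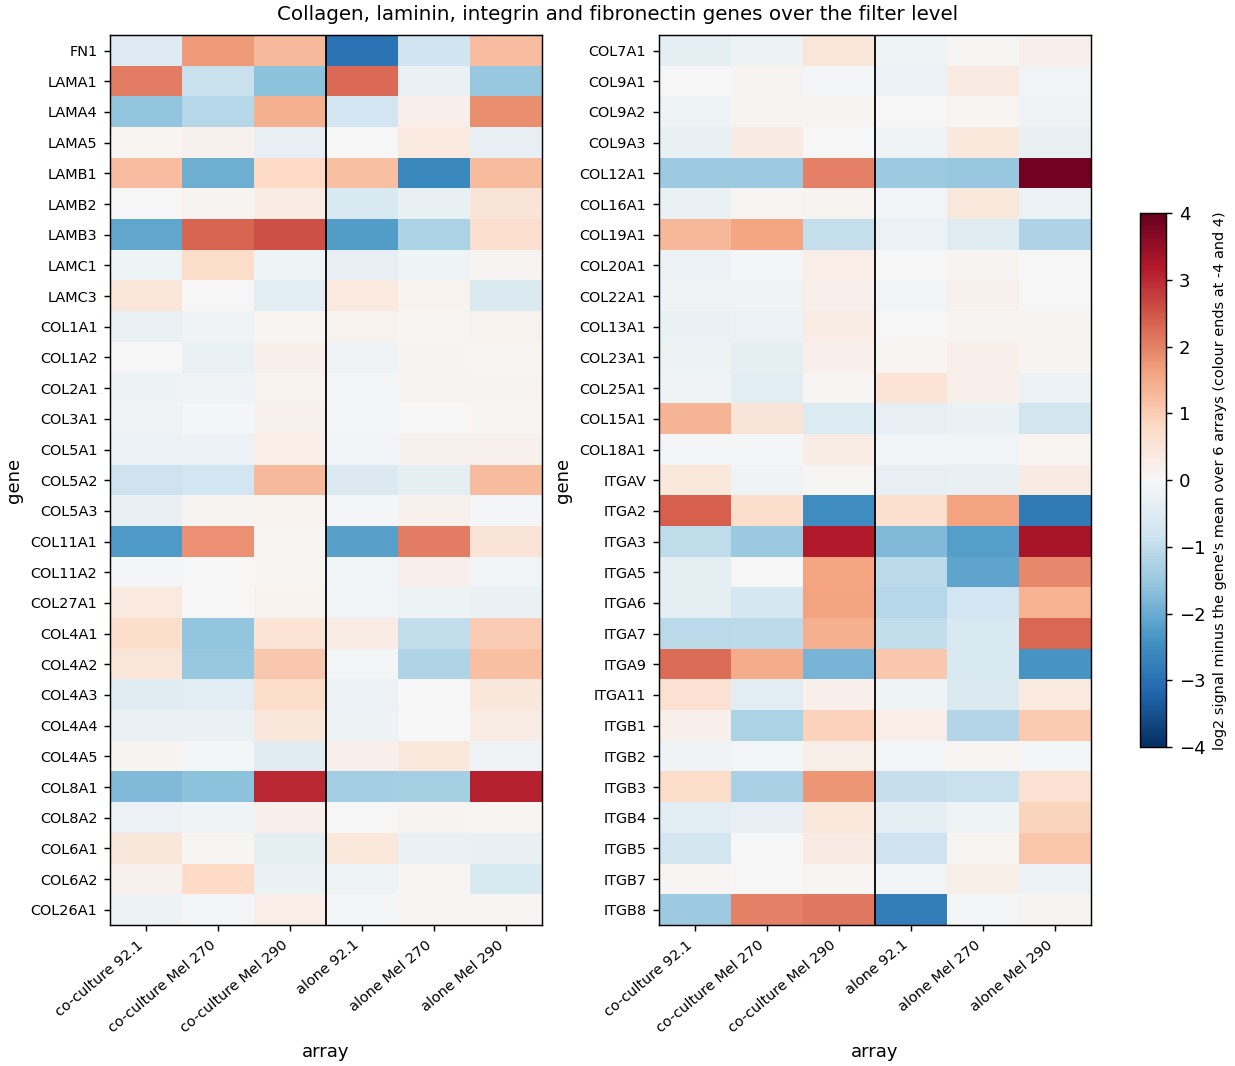
Log2 signal of the 58 tested genes on the 6 arrays, each minus the gene's own mean over the arrays, in blue below and red above that mean, with co-cultures left of cultures grown alone. The columns of Mel 290 stand out in both cultures, with COL8A1, COL12A1 and ITGA3 above and ITGA2 and ITGA9 below their means.

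More of these genes were called between the lines than between the cultures. In the limma fit, where each line is set against the mean of the other lines with culture in the model, 24 of 58 genes passed for Mel 290 (26.2% of all tested genes), 18 higher (11.3%) and 6 lower (14.9%). For Mel 270, 13 passed (14.4% of all), 2 higher (6.83%) and 11 lower (7.62%). For 92.1, 18 passed (15.9% of all), 6 higher (9.73%) and 12 lower (6.18%). At least 1 of the 3 contrasts was passed by 28 genes (33.9% of all). These standard errors come from 1 array per line and culture, hold the lines' unequal responses and do not measure the spread of repeat cultures. The counts rested on both arrays of a line: for Mel 290, 15 passed without its co-culture and 13 without its culture alone, and for 92.1, 6 passed without either array. Of the 55 single line results called, 21 were called under every alternative run for them and 34 were not under at least 1. Among the 18 higher in Mel 290, COL12A1, COL5A2 and COL8A1 were under the filter level in both cultures of both other lines, so they passed the filter through Mel 290. The same 3 genes are among the lower ones of Mel 270 and of 92.1 and were under the filter level there, as was LAMB3 in 92.1. ITGA2, among the 6 lower in Mel 290, was under the filter level in both cultures of that line. With no filter, 19 of all 73 genes were higher in Mel 290, against 9.19% of all 18417 genes.

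Grown alone, with no test, 24 of 58 genes differed at least 2-fold between the highest and lowest line, against 26.7% of all tested genes. They were 7 of 34 collagens, 5 of 8 laminins, 6 of 8 alpha and 5 of 7 beta subunits of integrins, and fibronectin. Set against the mean of the other lines alone, 18 were at least 2-fold higher in Mel 290 (7.79% of all) and 3 lower (8.32%), 3 were higher in Mel 270 (4.58%) and 9 lower (5.94%), and 4 were higher in 92.1 (6.29%) and 12 lower (4.40%). By pairs of lines alone, 21 genes were 2-fold apart or more between Mel 290 and Mel 270 (17.8%), 21 between Mel 290 and 92.1 (18.1%), and 10 between Mel 270 and 92.1 (9.77%).

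**Figure D3:**
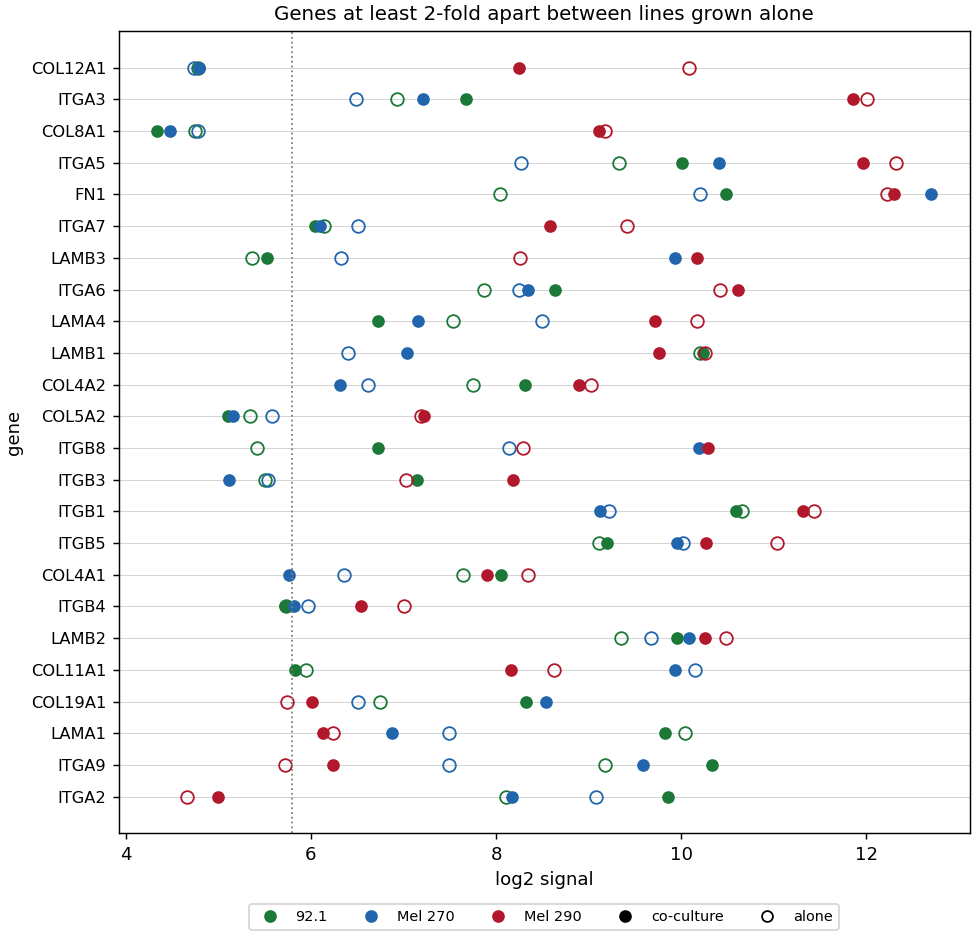
Log2 signal (horizontal axis) of the 24 genes at least 2-fold apart between lines grown alone, with filled points for co-culture, open points for growth alone and the filter level dotted, ordered by Mel 290 minus the mean of the other lines alone. At the top, Mel 290 is at 11.86 and 12.002 for ITGA3, against at most 7.67 in the other lines, and at the bottom it is at 4.99 and 4.66 for ITGA2, against at least 8.11.

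Of 34 tested collagens, 11 passed a line contrast, a share near the 33.9% of all tested genes, and the most familiar fibrillar chains were not among them. COL8A1, a short-chain collagen of vessel walls and of the cornea's inner membrane, was at 9.11 and 9.18 in Mel 290 (co-culture, alone), against 4.48 and 4.78 in Mel 270 and 4.34 and 4.75 in 92.1 (4.56 ± 0.14, 23.6-fold, adjusted p = 0.00035). COL12A1 was at 8.25 and 10.09 in Mel 290 (co-culture, alone), against 4.79 and 4.74 in Mel 270 and 4.79 and 4.78 in 92.1 (4.39 ± 0.43, adjusted p = 0.0038). Both were far above the other lines in both cultures of Mel 290, and both lay below the filter level elsewhere, so these folds are imprecise. COL5A2, which helps to set the width of type I fibrils, was at 7.23 and 7.19 in Mel 290 (co-culture, alone), against 5.16 and 5.58 in Mel 270 and 5.11 and 5.34 in 92.1 (1.91 ± 0.15, adjusted p = 0.0024). COL11A1, a minor fibrillar chain, was highest in Mel 270, at 9.93 and 10.15 in Mel 270 (co-culture, alone), against 8.16 and 8.63 in Mel 290 and 5.83 and 5.95 in 92.1 (2.90 ± 0.14, adjusted p = 0.0019). It was lowest in 92.1 (-3.33 ± 0.14, adjusted p = 0.0028). COL1A1, the main chain of type I collagen, lay between 7.07 and 7.49 on all 6 arrays, COL1A2 between 6.23 and 6.68, and COL3A1, which lies next to COL5A2 in the genome, between 6.17 and 6.48.

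The type IV genes lie head to head in pairs, and the pairs differed in how far their orders of lines matched. COL4A1 was at 7.91 and 8.34 in Mel 290 (co-culture, alone), against 5.76 and 6.36 in Mel 270 and 8.05 and 7.64 in 92.1, and COL4A2, which is read the other way with 126 bases between the starts, was at 8.90 and 9.03 in Mel 290 (co-culture, alone), against 6.32 and 6.61 in Mel 270 and 8.32 and 7.75 in 92.1. Both were lowest in Mel 270, while 92.1 was highest in co-culture for COL4A1 and Mel 290 for COL4A2. Mel 270 differed from the mean of the other lines by -1.92 ± 0.24 for COL4A1 (adjusted p = 0.013) and -2.03 ± 0.22 for COL4A2 (adjusted p = 0.0088). The second pair has 418 bases between its starts: COL4A3 was at 6.69 and 6.40 in Mel 290 (co-culture, alone), against 5.51 and 5.96 in Mel 270 and 5.50 and 5.73 in 92.1, and COL4A4 at 6.33 and 6.17 in Mel 290 (co-culture, alone), against 5.59 and 5.85 in Mel 270 and 5.61 and 5.67 in 92.1. Both were higher in Mel 290, by 0.87 ± 0.19 (adjusted p = 0.030) and 0.57 ± 0.15 (adjusted p = 0.047). COL4A3 did not pass without the co-culture array of Mel 290 (0.55, adjusted p = 0.15) or without either 92.1 array, and COL4A4 passed in 4 of 11 alternatives (adjusted p up to 0.23). The third pair differed in order: COL4A5, at 6.38 to 7.31, was lowest in Mel 290 in both cultures, while COL4A6, under the filter on average, was highest there, at 5.96 and 6.03 in Mel 290 (co-culture, alone), against 5.36 and 5.69 in Mel 270 and 5.35 and 5.43 in 92.1. Among the type VI genes, COL6A1 was highest in 92.1, at 8.75 and 8.72 in 92.1 (co-culture, alone), against 7.93 and 8.01 in Mel 290 and 8.33 and 8.03 in Mel 270 (0.66 ± 0.15, adjusted p = 0.044, and up to 0.27 over 12 alternatives). COL6A2, which lies beside it, was lowest in Mel 290 (-0.64 ± 0.15, adjusted p = 0.038, and up to 0.20 over 12 alternatives), and COL6A3, the third chain, stayed at 4.95 to 5.22 on all arrays.

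ITGA3, ITGA6 and ITGA7, alpha subunits of laminin receptors, were higher in Mel 290, and ITGA2, whose receptor binds laminin as well as collagen, was lower. ITGA3, of the alpha 3 beta 1 receptor, was at 11.86 and 12.002 in Mel 290 (co-culture, alone), against 7.21 and 6.49 in Mel 270 and 7.67 and 6.93 in 92.1 (4.86 ± 0.23, 28.9-fold, adjusted p = 0.0008). ITGA6, which pairs with beta 1 or beta 4, was at 10.62 and 10.42 in Mel 290 (co-culture, alone), against 8.34 and 8.24 in Mel 270 and 8.63 and 7.87 in 92.1 (2.25 ± 0.19, adjusted p = 0.0026). ITGA7, a muscle laminin receptor, was at 8.58 and 9.41 in Mel 290 (co-culture, alone), against 6.10 and 6.51 in Mel 270 and 6.05 and 6.14 in 92.1 (2.80 ± 0.19, adjusted p = 0.0017). For these 3 subunits both Mel 290 arrays lay above all arrays of the other lines. Their partners followed the same order at the top: ITGB1, the common beta subunit, was at 11.31 and 11.43 in Mel 290 (co-culture, alone), against 9.12 and 9.22 in Mel 270 and 10.59 and 10.65 in 92.1 (1.48 ± 0.13, adjusted p = 0.0028), and ITGB4, of hemidesmosomes, at 6.54 and 7.01 in Mel 290 (co-culture, alone), against 5.82 and 5.96 in Mel 270 and 5.72 and 5.73 in 92.1 (0.97 ± 0.16, adjusted p = 0.013, and 0.080 without the Mel 290 array grown alone). ITGB1 was lowest in Mel 270 (-1.83 ± 0.13, adjusted p = 0.0034) and differed between the cultures by -0.09 ± 0.03.

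Receptors of fibronectin and vitronectin were mixed. ITGA5, the alpha subunit of the main fibronectin receptor, was at 11.96 and 12.32 in Mel 290 (co-culture, alone), against 10.41 and 8.27 in Mel 270 and 10.01 and 9.32 in 92.1 (2.64 ± 0.50, adjusted p = 0.020, and 1.75 with an adjusted p of 0.11 without the Mel 290 array grown alone). In Mel 270 its co-culture lay 4.42-fold above the culture alone and in 92.1 1.61-fold, while Mel 290 was lower in co-culture (0.78-fold), and the mean of 0.83 ± 1.25 did not pass (adjusted p = 0.41). ITGAV, the partner of several beta subunits, was at 11.16 in 92.1, 10.60 in Mel 270 and 10.79 in Mel 290 in co-culture, against 10.42, 10.45 and 11.08 in the same lines alone. It was not called in any limma contrast. ITGB3, which with alpha V binds vitronectin, was at 7.14, 5.12 and 8.18 in co-cultured 92.1, Mel 270 and Mel 290, against 5.50, 5.53 and 7.03 alone (0.79 ± 1.07, adjusted p = 0.37 between cultures). It was 3.11-fold higher in co-culture in 92.1 and 2.23-fold in Mel 290, and 0.75-fold in Mel 270, where it lay below the filter level in both cultures. ITGB3 was also below that level in 92.1 alone, so its fold there is imprecise. Over both cultures it was called higher in Mel 290 (1.78 ± 0.43, SE, adjusted p = 0.038), though not under every alternative. ITGB5 was at 10.27 and 11.04 in Mel 290 (co-culture, alone), against 9.95 and 10.02 in Mel 270 and 9.20 and 9.11 in 92.1 (1.08 ± 0.22, adjusted p = 0.023). Over 12 alternatives the ITGB5 difference was 0.69 to 1.47, and it did not pass without the Mel 290 array grown alone (0.69, adjusted p = 0.096) or without the 92.1 array grown alone (0.95, adjusted p = 0.057). ITGB8 was lower in 92.1 than in the other lines (-3.16 ± 0.20, adjusted p = 0.0040).

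ITGA2 and ITGA9 were lowest in Mel 290. ITGA2, of the collagen and laminin receptor alpha 2 beta 1, was at 4.99 and 4.66 in Mel 290 (co-culture, alone), against 8.18 and 9.08 in Mel 270 and 9.86 and 8.11 in 92.1, and Mel 290 was lower (-3.98 ± 0.52, adjusted p = 0.0078, and 0.074 or 0.078 without 1 of the Mel 290 arrays). Both Mel 290 arrays were under the filter level for ITGA2, so the size of that difference is imprecise. Co-culture lay 3.36-fold above growth alone for ITGA2 in 92.1 and 0.54-fold as high in Mel 270. ITGA9, which binds tenascin-C and osteopontin, was at 6.23 and 5.72 in Mel 290 (co-culture, alone), against 9.59 and 7.49 in Mel 270 and 10.33 and 9.18 in 92.1, and Mel 290 was lower (-3.17 ± 0.33, adjusted p = 0.0044). It was higher in co-culture in every line, by 2.22-fold in 92.1, 4.28-fold in Mel 270 and 1.43-fold in Mel 290 (1.26 ± 0.79, adjusted p = 0.13). ITGA9 was under the filter level in Mel 290 alone, so its fold there and the size of its line difference are imprecise. ITGA11, a collagen receptor of fibroblasts, was at 6.997 in 92.1, 5.96 in Mel 270 and 6.59 in Mel 290 in co-culture, against 6.24, 5.82 and 6.80 in the same lines alone. ITGA1, which neighbours ITGA2, was not analysed here. Of the leukocyte subunits, ITGB2 lay at 6.01 to 6.38 and ITGB7 at 5.88 to 6.34. ITGA4, at 4.62 to 5.14, was under the filter level on every array. Of the 4 tested leukocyte integrins outside the name pattern, 0 were called between the cultures (0 at an unadjusted p under 0.05), with ITGAX higher in Mel 290.

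**Figure D4:**
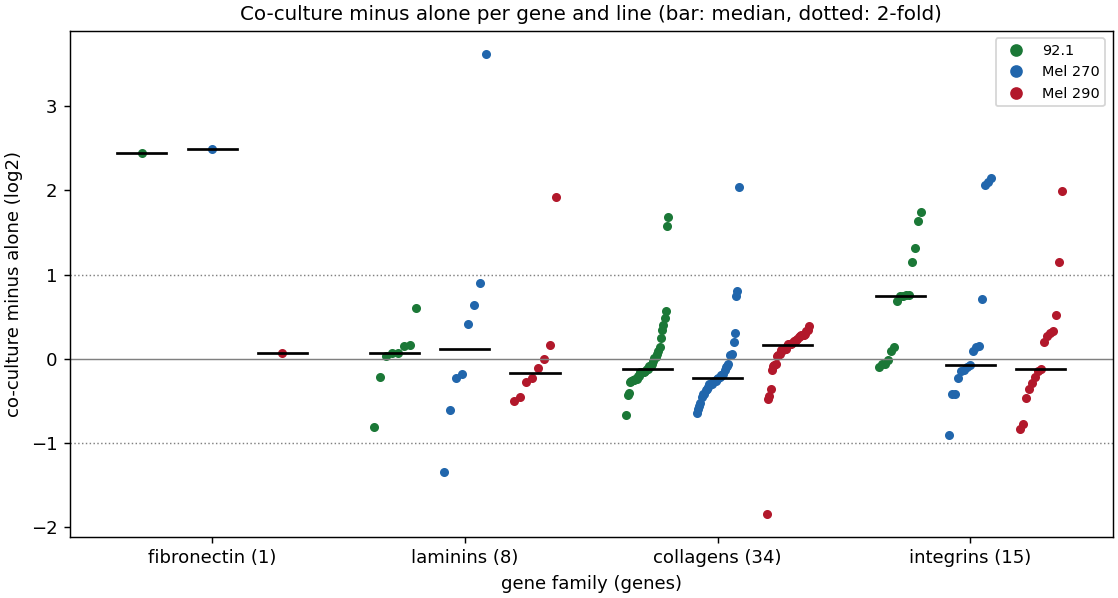
Co-culture minus alone on the log2 scale (vertical axis) for each of the 58 tested genes in each line, by family, with the median as a bar and 2-fold differences dotted. Most collagens lie within 0.5 of 0 in every line, while LAMB3 in Mel 270 is the highest point, at 3.62, and COL12A1 in Mel 290 the lowest, at -1.84.

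The other 18 tested genes were the leukocyte subunits ITGB2 and ITGB7 and 16 collagens: COL1A1, COL1A2, COL2A1, COL3A1, COL5A1, COL5A3, COL7A1, COL8A2, COL9A1, COL9A2, COL11A2, COL13A1, COL18A1, COL20A1, COL22A1 and COL26A1. Their levels ran from 5.88 to 8.11, none spanned more than 0.88 over the 6 arrays, and none differed by more than 0.42 between the cultures of a line. The 15 genes under the filter level were COL6A3, COL6A5, COL6A6, COL10A1, COL14A1, COL21A1, COL24A1, COL28A1, COL4A6, ITGA4, ITGA8, ITGA10, ITGB6, LAMA2 and LAMB4. Their levels ran from 3.33 to 6.32, 13 of the 15 were below 5.80 on all 6 arrays, and their mean differences in co-culture were between -0.45 and 0.13. COL11A2 had 3 probe sets, and the 2 not used held identical values that were 0.43 ± 0.14 higher in co-culture, beside 0.03 ± 0.19 for the one used. Changes in the 3 lines were compared over the 58 genes as a description with no test, since genes on shared arrays are not independent. Pearson's r was 0.545 between 92.1 and Mel 270, 0.397 between Mel 270 and Mel 290 and 0.266 between 92.1 and Mel 290, and over all tested genes it was 0.637, 0.497 and 0.502.

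Genes that process, accompany or read the matrix were counted in the same fits, from lists of partner genes. In limma 0 were called for co-culture among 26 genes of collagen processing, 21 other matrix glycoproteins, 9 other collagen and laminin receptors, 23 genes of integrin adhesion and signalling, and 21 matrix-inducing growth factors and regulators. At an unadjusted p under 0.05, 2 processing genes were higher and 1 lower, 1 glycoprotein gene was higher, 1 adhesion gene was higher and 3 lower, 4 growth factor genes were higher and 2 lower, and 0 of the other receptors passed, where 7.02% of all tested genes were higher and 13% lower. In Mel 290, 10 processing genes were higher and 2 lower, 13 matrix glycoproteins were higher and 1 lower, 9 adhesion genes were higher and 1 lower, 7 growth factor genes were higher and 0 lower, and 2 other receptors were higher and 1 lower, where 11.3% of all tested genes were higher and 14.9% lower. In Mel 270, 4 processing genes were higher and 9 lower, the glycoproteins gave 0 higher and 9 lower, the adhesion genes 0 and 4, the growth factors 1 and 5, and the other receptors 0 and 3 (6.83% and 7.62% of all). In 92.1 the same lists gave 3 higher and 6 lower, 2 and 7, 1 and 2, 0 and 5, and 0 and 1 (9.73% and 6.18% of all). Among the glycoproteins higher in Mel 290, PXDN, THBS1, NID1 and NID2 were under the filter level in both cultures of both other lines. They passed the filter through Mel 290 and are also among the glycoproteins counted as lower in Mel 270 and in 92.1. The crosslinking enzyme LOX was at 11.97 and 11.17 in Mel 290 (co-culture, alone), against 4.91 and 4.64 in Mel 270 and 7.93 and 7.07 in 92.1. SERPINH1, the chaperone of procollagen, was at 6.10 and 6.24 in Mel 270 (co-culture, alone), against 10.26 and 11.15 in Mel 290 and 10.64 and 10.45 in 92.1, and PLOD2, which hydroxylates collagen lysines, was at 3.80 and 4.44 in Mel 270 (co-culture, alone), against 10.43 and 9.94 in Mel 290 and 9.25 and 9.36 in 92.1. Mel 270 lay below the other lines for both, as it did for PARVA, an actin link of integrins, at 5.20 and 5.72 in Mel 270 (co-culture, alone), against 9.64 and 10.21 in Mel 290 and 10.00 and 10.12 in 92.1. TNC, or tenascin-C, a ligand of alpha 9 beta 1, was at 7.76, 5.97 and 11.71 in co-cultured 92.1, Mel 270 and Mel 290, against 5.61, 5.71 and 9.62 alone (1.50 ± 1.08, adjusted p = 0.14 between cultures). TGFB2, the ligand gene with the widest spread, was at 10.06 and 12.03 in Mel 290 (co-culture, alone), against 5.02 and 5.41 in Mel 270 and 5.92 and 5.88 in 92.1, and CCN1, a matrix-bound integrin ligand, at 12.03 and 12.22 in Mel 290 (co-culture, alone), against 6.16 and 6.26 in Mel 270 and 7.66 and 6.34 in 92.1.

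Markers of other cells were counted beside the line differences. Among 8 tested fibroblast and pericyte markers, FAP and PDGFRB were higher in Mel 290, with FAP at 10.61 and 10.26 in Mel 290 (co-culture, alone), against 4.21 and 4.29 in Mel 270 and 4.27 and 4.02 in 92.1. FAP was under the filter level in both other lines, so it passed the filter through Mel 290. COL1A1, COL1A2 and COL3A1 are in that list as well and were not called in Mel 290 (adjusted p = 0.44, 0.41 and 0.37 in limma). Epithelial markers gave 2 of 4 higher in Mel 290, led by KRT8, at 8.98 and 10.17 in Mel 290 (co-culture, alone), against 6.17 and 6.71 in Mel 270 and 6.16 and 6.39 in 92.1. Monocyte and macrophage markers gave 2 of 5 higher in Mel 290, endothelial markers 1 of 2 lower, and retinal pigment epithelium markers 1 of 3 higher and 1 lower. Over all tested genes 11.3% were higher and 14.9% lower in Mel 290. In 92.1, 3 fibroblast markers were lower (6.18% of all tested genes), and in Mel 270, 2 (7.62%). For co-culture 0 genes of these lists were called (0.449% of all tested genes). At an unadjusted p under 0.05 CD68 was higher (7.02% of all) and PDGFRB, KRT8 and LRAT were lower (13%). The part of any of them in the line differences was not tested.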

How the data were processed

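Total RNA of 6 cultures was measured on Affymetrix arrays. Per the submitters' processing notes the authors made the deposited log2 values with Affymetrix Expression Console 1.2.0.20; how background was corrected, probes summarized and arrays normalized is not given in the sources used here. Values ran from 1.49 to 13.9, with array medians of 6.63 to 6.69, and were used as deposited. A low signal is limited by background, and the number of arrays limits the precision.

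Of 33297 probe sets, 19460 carried 1 symbol, 1754 several and 12083 none in the annotation used here; 19429 matched RefSeq (GRCh38.p14) by Entrez ID. Probe sets could not be sorted into controls and others, so the filter percentile was taken over the 21214 listed ones. In limma 3.58.1 (R 4.3.3), lmFit and eBayes were run over all 13808 tested genes with cell line and culture as terms, which left 2 residual degrees of freedom and a prior of 3.10. P-values were adjusted by Benjamini-Hochberg with a threshold of 0.05, and any adjusted p is from that fit. An exact two-sided permutation over 3 pairs cannot go below p = 0.25. The pairs are the same cell line in both cultures, and same-line deviations from the group means correlated at 0.648 to 0.771. The scripts were tested on simulated data.

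The genes and lists were chosen with earlier results of these data known. Values of all arrays are given for called genes, the 30 with the largest mean absolute co-culture difference, the 30 with the largest range alone and genomic neighbours; other lists give up to 4 genes by each measure. A probe set's level was not set against another's. Alternatives covered the filter, probe set averaging, cyclic loess, raised low values, eBayes settings, the block and left-out arrays or lines.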

Additional observations from a re-analysis of the deposited data

Results flagged for a closer look

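ITGA2 moved in opposite directions in different lines: co-culture minus alone was 1.75 in 92.1, -0.90 in Mel 270 and 0.33 in Mel 290, each from 1 array per culture, and this difference between lines was not tested. In Mel 290 both levels of ITGA2 were under the filter level. A probe set annotated with both PELO and ITGA1 was left out of the counts because it has several symbols. It lay at 9.44, 10.93 and 9.19 in co-cultured 92.1, Mel 270 and Mel 290, against 7.83, 7.90 and 8.76 alone, a mean difference of 1.69 ± 1.30 (SD, n = 3 lines). Which of its genes gave that signal was not tested.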

How the results depend on the processing

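For co-culture, 1 of the 58 genes (ITGB8) was called in the reported fit, with a median filter, with trend and robust eBayes and without replicate 1 (92.1). The count was 0 with no filter, with the mean of all probe sets, with cyclic loess, with low values raised to the filter level and with no replicate block, and 0 to 1 when a line was left out, where FN1 was the gene called without replicate 3 (Mel 290). All genes called numbered 62, and 41 with cyclic loess, 18 with no replicate block and 49 to 85 with a line left out. The pairing by line is set by the design, so the block belongs to the reported fit. The COL12A1 difference was -0.59, ran from -0.92 to 0.029 with a line left out and changed sign without replicate 3. Line contrasts called 6 to 18 genes for 92.1 when 1 array was left out, 9 to 12 for Mel 270 and 13 to 24 for Mel 290: the count was 6 without either 92.1 array, 15 without the co-culture array of Mel 290 and 13 without its array grown alone. The cause of these moves was not tested. Leaving out any array also leaves fewer residual degrees of freedom. Of 55 called line results, 3 missed the threshold with cyclic loess, 5 with low values raised, 2 with trend and robust eBayes and 1 with no filter, namely some of COL12A1, ITGA2, LAMB3, COL4A4 and ITGB3. With 1 array left out, a line result missed the threshold 92 times and passed 238 times.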
